A study of Mus musculus with 15 samples.

Results

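Itaconate is made by a side branch of the tricarboxylic acid (TCA) cycle, and the expression of 9 genes of this branch point and of the cycle was compared over all 5 conditions of the study. The genes were given by their roles in the pathway, a rule that uses no measured value, and are 9 of the 51763 genes in the count table. They are Acod1 for the branch, and Cs, Idh1, Idh2, Idh3a, Ogdh, Sdha, Sdhb and Fh1 for the cycle and its isocitrate dehydrogenases. These 8 are called cycle genes below, although the enzyme of Idh1 lies in the cytosol and peroxisomes and is not part of the mitochondrial cycle. The cells were bone marrow-derived macrophages (BMDMs) of C57BL/6NTac mice, grown with M-CSF at 10 ng/mL and then stimulated for 24 h. The 5 groups of 3 libraries were the PBS control, the fully reduced form of HMGB1 (frHMGB1) and its disulfide form (dsHMGB1), both at 5 µg/mL, and LPS at 1 µg/mL, alone or together with IFNγ at 20 ng/mL (LPS/IFNγ). For LPS/IFNγ the labels give LPS both as 1 µg/mL and as 100 ng/mL, so the LPS dose may differ between LPS and LPS/IFNγ. HMGB1 is a nuclear protein that acts as an alarmin once released, and its disulfide form is a ligand of TLR4, the receptor for bacterial LPS. The macrophages of 5 mice were pooled before seeding, so the p-values below measure the spread between technical replicates and not between animals.

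In the TCA cycle, citrate synthase joins acetyl-CoA to oxaloacetate, citrate is turned through cis-aconitate into isocitrate, and isocitrate dehydrogenase, the 2-oxoglutarate dehydrogenase complex, succinate dehydrogenase and fumarase carry the carbon on to malate. The enzyme encoded by Acod1 (also known as Irg1) decarboxylates cis-aconitate to itaconate and so draws carbon off before isocitrate. Itaconate inhibits succinate dehydrogenase, and macrophages activated through TLR4 are known for making it in large amounts and for breaks in the cycle at isocitrate dehydrogenase and succinate dehydrogenase. The counts are of mRNA and say nothing of enzyme activity or metabolites.

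The 9 genes lie on 8 chromosomes of GRCm38. Acod1 (ENSMUSG00000022126) spans chr14:103046977-103056573 on the plus strand, Cs (ENSMUSG00000005683) chr10:128337734-128362479, Idh3a (ENSMUSG00000032279) chr9:54586334-54604661, Ogdh (ENSMUSG00000020456) chr11:6291633-6356642 and Sdhb (ENSMUSG00000009863) chr4:140961203-140979193, all on the plus strand. Idh1 (ENSMUSG00000025950) spans chr1:65158616-65186500, Fh1 (ENSMUSG00000026526) chr1:175600374-175625635, Idh2 (ENSMUSG00000030541) chr7:80094846-80115392 and Sdha (ENSMUSG00000021577) chr13:74322254-74350280, all on the minus strand. No exon of the 9 genes shares a base with an exon of another annotated gene, although other genes overlap the spans of Cs, Idh2, Sdha and Fh1. Cs has a near copy, Csl, at 91.9% identity over 1522 aligned bases, and its 333 counts over all libraries came to 0.183% of those of Cs.

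The promoters of 3 genes are shown because these genes had the 3 extreme patterns: Acod1 was far higher, Idh1 far lower and Sdha nearly level in normalized counts over the conditions. They are RefSeq's (GRCm38.p6), read 5′ to 3′ on the gene's strand. Capitals mark matches to the motifs listed below.
Acod1 (chr14:103046762-103047006, plus strand): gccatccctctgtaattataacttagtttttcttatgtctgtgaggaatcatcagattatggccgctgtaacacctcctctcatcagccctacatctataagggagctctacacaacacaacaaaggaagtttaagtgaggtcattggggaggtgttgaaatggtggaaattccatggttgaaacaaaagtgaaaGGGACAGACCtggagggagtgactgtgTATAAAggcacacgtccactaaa
Idh1 (chr1:65186480-65186729, minus strand): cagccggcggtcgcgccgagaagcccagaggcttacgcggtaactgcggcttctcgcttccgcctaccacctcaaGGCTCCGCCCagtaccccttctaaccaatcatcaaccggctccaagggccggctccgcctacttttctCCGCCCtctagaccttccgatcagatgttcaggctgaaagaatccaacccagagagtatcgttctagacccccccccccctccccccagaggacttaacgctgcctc
Sdha (chr13:74350251-74350490, minus strand): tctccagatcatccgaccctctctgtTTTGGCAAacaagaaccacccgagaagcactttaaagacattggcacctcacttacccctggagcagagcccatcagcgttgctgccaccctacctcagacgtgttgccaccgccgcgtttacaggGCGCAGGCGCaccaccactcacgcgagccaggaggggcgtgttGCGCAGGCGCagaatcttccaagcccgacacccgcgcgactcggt

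The capitals in Acod1 are a match to the NF-kB pattern (GGG, any 5 bases, CC) from 55 to 46 bases before the RefSeq start and a TATA box (TATAAA) from 28 to 23 bases before it. Those in Idh1 are 2 GC boxes (GGGCGG) on the opposite strand, one of them within an NF-kB match. Those in Sdha are a C/EBP pattern (TTGCNNAA) and 2 copies of the NRF1 pattern (GCGCA, any base, GCGC); another copy follows in the last 10 bases before the start, past the stretch shown. The 250 bases before the start were searched on both strands in all 32851 RefSeq promoters. The NF-kB pattern was present in 45.8% of them, the TATA box in 12.4%, the GC box in 32.7%, the C/EBP pattern in 9.56% and the NRF1 pattern in 3.74%. Among the members, the NF-kB pattern had a match in Acod1, Cs, Idh1, Idh2, Sdhb and Fh1, and none in Ogdh or Sdha. Among the 8 members with a promoter in the table, Acod1 alone had a TATA box, and Cs, Idh1, Idh2, Ogdh, Sdhb and Fh1 had a GC box where Acod1 and Sdha had none. The core of the interferon-stimulated response element (GAAA, any 2 bases, GAAA; 2.98% of promoters), the AP-1 pattern (TGANTCA; 6.75%) and the ERR pattern (AAGGTCA; 4.08%) had no match in these 8 windows. A match is a description of the letters and not a binding site. Idh3a has no entry in the promoter table.

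The libraries held 40934540 to 80925478 counts, and Acod1 in PBS rested on 165, 291 and 83 reads. All 7 macrophage markers were detected in every group, with a summed level of 13150 to 27040 CPM (counts scaled to the library total), against 118 to 282 CPM for 5 fibroblast markers, 13.5 to 35.5 CPM for 7 lymphocyte markers and 2.0 to 5.5 CPM for 6 neutrophil markers; Cd3e, Cd8a, Ncr1, S100a9, Ly6g and Mpo were at 0. Cd4, the only lymphocyte marker with enough counts to be tested, had 833 to 1554 normalized counts over the 15 libraries. Of the neutrophil markers, S100a8 and Camp were tested. Both were called higher in LPS than in PBS, and Camp in dsHMGB1. Without PBS replicate 3, 2 were called higher in LPS, 2 in dsHMGB1 and 1 in LPS/IFNγ. Erythroid markers reached at most 0.351 CPM, with Hba-a1 and Hbb-bs at 0. The 5 dendritic cell markers summed to 3.35 to 5.17 CPM in PBS, frHMGB1 and dsHMGB1. The sum was 7.81 to 8.62 CPM in LPS and 13.8 to 14.9 CPM in LPS/IFNγ, and none of the 5 was at 0. It joins markers that moved opposite ways. Of the 3 tested against PBS, dsHMGB1 had 1 called higher and 1 lower (2 and 1 without PBS replicate 3). LPS and LPS/IFNγ each had 2 and 1 in either fit. Mean normalized counts of Zbtb46 and Xcr1 were above PBS after these stimulations. Those of Clec9a fell from 117 with PBS to 9.73 with dsHMGB1, 12.0 with LPS and 67.1 with LPS/IFNγ. Of the 5 fibroblast markers, 4 were called higher in LPS and in LPS/IFNγ than in PBS. The macrophage sum was lowest in LPS/IFNγ (13150 to 13450 CPM) and highest in frHMGB1 (26780 to 27040 CPM). Sums in CPM follow library totals, unlike the scaling used for the calls. Under the latter, 3 of the 7 macrophage markers were called higher and 2 lower in LPS/IFNγ than in PBS. Without PBS replicate 3 the counts were 4 and 2. Of all tested genes, 29.0% were called higher and 31.2% lower with all libraries. The part of these differences in the results was not tested. PBS replicate 3 stood apart. Its log counts correlated with those of PBS replicates 1 and 2 at r = 0.933 to 0.938 across genes, where other pairs of replicates reached 0.987 to 0.993, and its level relative to them fell with transcript length. The median log2 ratio was 1.26 for the 1458 genes whose longest transcript is under 1500 bases and -0.935 for the 2970 genes at 5000 bases and over. Among the members this ratio was 1.57 for Sdhb, 1.15 for Fh1, 0.52 for Idh2, -0.65 for Ogdh and -0.58 for Acod1. Differences from PBS are therefore also given without this library for the counts of calls, and for a single gene where leaving it out ends or adds a call of a value given here or moves a called value by over 1.5 times.

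**Figure D1:**
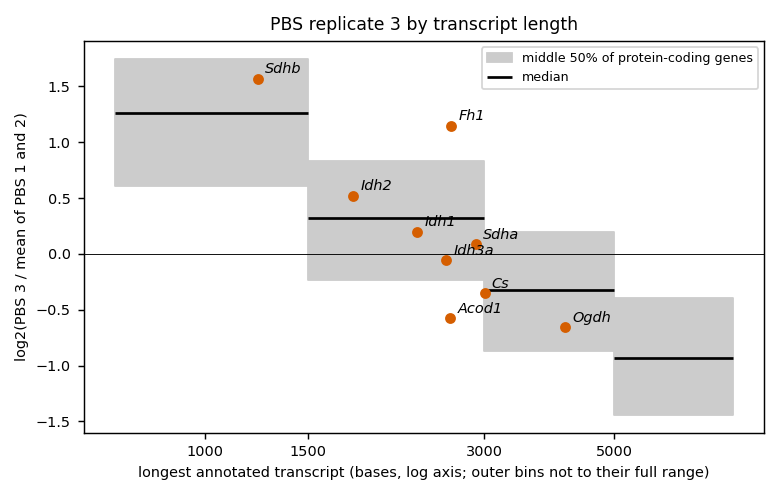
Log2 ratio of PBS replicate 3 to the mean of PBS replicates 1 and 2 (vertical axis) against the longest annotated transcript in bases (log axis). Grey boxes hold the middle 50% of protein-coding genes in 4 length bins and black lines the medians, which run from 1.26 in the shortest to -0.935 in the longest bin; orange points are the 9 genes, with Sdhb at 1.57 and Fh1 at 1.15.

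Acod1 was nearly silent in PBS and among the most abundant transcripts after dsHMGB1, LPS and LPS/IFNγ. The normalized counts in the 3 PBS libraries were 107, 184 and 97.2, and in frHMGB1 641, 546 and 361. In dsHMGB1 they were 280255, 293660 and 290028, in LPS 485269, 510919 and 514386, and in LPS/IFNγ 362778, 362378 and 373367. The 5 groups did not overlap, in the order LPS, LPS/IFNγ, dsHMGB1, frHMGB1 and PBS. Relative to PBS, Acod1 rose by a log2 fold change of 11.11 ± 0.23 (SE, n = 3 per group) after dsHMGB1 (adjusted p = 1.51e-11, edgeR), 11.92 ± 0.23 after LPS (adjusted p = 5.63e-12) and 11.46 ± 0.23 after LPS/IFNγ (adjusted p = 6.15e-12). These are folds of 2212, 3867 and 2813. In bulk RNA, fewer expressing cells and less RNA per cell cannot be told apart, so these folds do not say how many cells carried the transcript.

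The share of all reads taken by Acod1 was 0.478% to 0.501% in dsHMGB1, 0.669% to 0.690% in LPS and 0.497% to 0.505% in LPS/IFNγ. By raw count it ranked 11th or 12th among all genes in the dsHMGB1 libraries, 9th or 10th in LPS and 15th in LPS/IFNγ, against ranks from 9787 to 10884 in PBS. Kctd12, the nearest annotated gene before Acod1, at a distance of 64339 bases, also rose in these 3 groups, by 1.00 ± 0.28, 1.77 ± 0.28 and 2.21 ± 0.28 in dsHMGB1, LPS and LPS/IFNγ (log2, adjusted p = 0.0112, 0.000176 and 2.05e-05).

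Acod1 also rose in frHMGB1, to a far lower level. The level of 516 ± 142 (SD, n = 3) was 3.96-fold that of PBS at 129 ± 47.3, with a log2 fold change of 1.99 ± 0.23 (adjusted p = 0.000131). Without PBS replicate 3 the log2 fold change was 1.83 ± 0.24 (adjusted p = 2.7e-06), and with the frHMGB1 and PBS libraries fitted alone the adjusted p was 0.0613. dsHMGB1 exceeded frHMGB1, given at the same concentration, by 9.12 ± 0.22 on the log2 scale, which is 558-fold (adjusted p = 5.61e-11). Compared with LPS, dsHMGB1 gave less Acod1 mRNA, at -0.81 ± 0.22 (adjusted p = 0.021). This call was lost without any 1 of the dsHMGB1 libraries (adjusted p = 0.0573 to 0.0642), without LPS replicate 2 or 3 (0.0503 and 0.0521) and with counts scaled by library totals only (0.15). Against LPS/IFNγ the difference of dsHMGB1 was -0.35 ± 0.22 (adjusted p = 0.286), with a 95% interval from -0.78 to 0.09, and for LPS/IFNγ against LPS it was -0.46 ± 0.22 (adjusted p = 0.186). With the groups compared fitted alone, both were called (-0.32, adjusted p = 0.000479, and -0.46, adjusted p = 2.1e-11). Without PBS replicate 3, LPS/IFNγ was called below LPS (-0.46 ± 0.21, adjusted p = 0.00582). In that fit dsHMGB1 was not called against LPS/IFNγ (-0.34 ± 0.21, adjusted p = 0.0544).

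**Figure D2:**
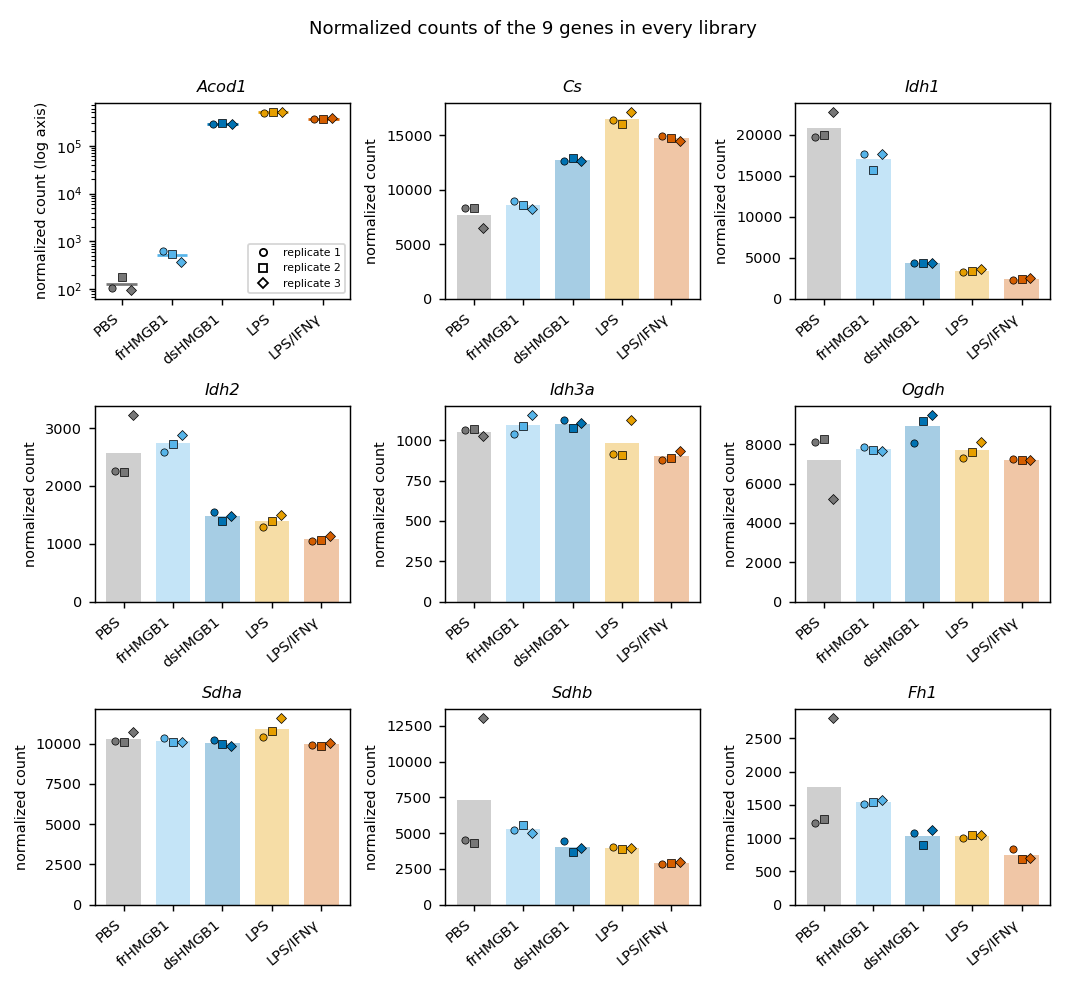
Normalized counts of the 9 genes in each of the 15 libraries, with circles, squares and diamonds for replicates 1, 2 and 3, bars (lines for Acod1) at the group means, and a log axis for Acod1. Acod1 runs from 97.2 to 514386, Idh1 falls from 22755 at the highest to 2310 at the lowest, Sdha lies between 9866 and 11581, and PBS replicate 3 stands above the other PBS libraries for Sdhb and Fh1.

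Citrate synthase, the enzyme of the first step, rose together with Acod1 in dsHMGB1, LPS and LPS/IFNγ. Cs had normalized counts of 8319, 8307 and 6511 in PBS and 8929, 8558 and 8245 in frHMGB1. It had 12665, 12868 and 12651 after dsHMGB1, 16376, 16052 and 17101 after LPS and 14912, 14751 and 14502 after LPS/IFNγ. The last 3 groups lay above every PBS and frHMGB1 library and did not overlap each other. The log2 fold change over PBS was 0.72 ± 0.09 after dsHMGB1 (adjusted p = 0.00012), 1.10 ± 0.09 after LPS (adjusted p = 2.33e-06) and 0.93 ± 0.09 after LPS/IFNγ (adjusted p = 7.81e-06). It was 0.61, 0.98 and 0.82 without PBS replicate 3. With library totals only, the calls in dsHMGB1 and LPS/IFNγ were lost (adjusted p = 0.0549 and 0.162). dsHMGB1 was above frHMGB1 by 0.57 ± 0.09 (adjusted p = 0.00093; 0.335 with library totals only). It was below LPS by -0.38 ± 0.09 (adjusted p = 0.0421), a call lost without any 1 of the frHMGB1, dsHMGB1 or LPS libraries (adjusted p = 0.0573 to 0.117) and with library totals only (0.856). frHMGB1 differed from PBS by 0.15 ± 0.09 (adjusted p = 0.498; interval -0.03 to 0.33).

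Idh1, the NADP-dependent isocitrate dehydrogenase of the cytosol and peroxisomes, showed the largest fall of the 9 genes. Its normalized counts were 19683, 19954 and 22755 in PBS and 17631, 15726 and 17640 in frHMGB1. They were 4305, 4383 and 4292 after dsHMGB1, 3305, 3378 and 3575 after LPS and 2310, 2419 and 2548 after LPS/IFNγ. The 5 groups did not overlap, and ran from PBS, the highest, through frHMGB1, dsHMGB1 and LPS down to LPS/IFNγ. The log2 fold change over PBS was -2.26 ± 0.08 after dsHMGB1 (adjusted p = 8.45e-11), -2.60 ± 0.08 after LPS (adjusted p = 1.25e-11) and -3.10 ± 0.08 after LPS/IFNγ (adjusted p = 3.1e-12). Idh1 in dsHMGB1 was 1.27-fold that in LPS (log2 0.34 ± 0.08, adjusted p = 0.00238) and 1.78-fold that in LPS/IFNγ (0.83 ± 0.08, adjusted p = 2.41e-06). LPS/IFNγ was below LPS by -0.49 ± 0.08 (adjusted p = 0.000766), the single call among the members in that comparison. In frHMGB1 the difference from PBS was -0.29 ± 0.08 (adjusted p = 0.0591), and -0.22 ± 0.07 without PBS replicate 3 (adjusted p = 0.0158).

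Idh2, the NADP-dependent enzyme of the mitochondrion, fell less. Its normalized counts were 2251, 2236 and 3225 in PBS and 2593, 2735 and 2887 with frHMGB1, and 1549, 1401 and 1487 with dsHMGB1, 1291, 1400 and 1497 with LPS and 1048, 1069 and 1127 with LPS/IFNγ. dsHMGB1 and LPS overlapped, and both lay between the PBS and frHMGB1 libraries and LPS/IFNγ. The log2 fold change over PBS was -0.80 ± 0.14 (adjusted p = 8.53e-05), -0.88 ± 0.14 (adjusted p = 1.3e-05) and -1.25 ± 0.14 (adjusted p = 6.49e-07) in dsHMGB1, LPS and LPS/IFNγ. Leaving out PBS replicate 3, they were -0.61, -0.69 and -1.06 and were called too. dsHMGB1 was above LPS/IFNγ by 0.45 ± 0.14 (adjusted p = 0.00719).

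Idh3a, the catalytic subunit of the NAD-dependent isocitrate dehydrogenase that runs the cycle itself, stayed in a narrow range of 877 to 1155 normalized counts over all 15 libraries. The means were 1052 ± 24.9 in PBS, 1095 ± 57.7 with frHMGB1, 1103 ± 25.5 with dsHMGB1, 982 ± 122 with LPS and 900 ± 28.6 with LPS/IFNγ (SD, n = 3). It was called lower in LPS/IFNγ than in PBS, at -0.23 ± 0.09 (adjusted p = 0.0468), and higher in dsHMGB1 than in LPS/IFNγ, at 0.29 ± 0.09 (adjusted p = 0.0318). The first call was lost in 16 of 24 alternative fits and the second in 7. The narrow range depends on the scaling. With library totals only, Idh3a was called lower in LPS than in PBS (-0.80, adjusted p = 5.9e-05) and in dsHMGB1 than in frHMGB1 (-0.39, adjusted p = 0.0138). That scaling also called it higher in dsHMGB1 than in LPS (0.50, adjusted p = 0.00648). With upper quartile scaling it was called lower in LPS than in PBS (-0.45, adjusted p = 0.0014). Per kilobase of exon, Idh1 was 36.2 ± 3.84 times Idh3a in PBS and 28.5 ± 2.35 times in frHMGB1, and 7.18 ± 0.25, 6.42 ± 0.52 and 4.93 ± 0.10 times in dsHMGB1, LPS and LPS/IFNγ. The ratio of Idh1 to Idh2 went from 7.70 ± 0.96 in PBS to 2.74 ± 0.17, 2.29 ± 0.09 and 2.10 ± 0.03 in the same 3 groups.

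Ogdh, the decarboxylating subunit of the 2-oxoglutarate dehydrogenase complex, and Sdha, the flavoprotein subunit of succinate dehydrogenase, were called in no comparison under the scaling used. Ogdh had 8109, 8270 and 5206 normalized counts in PBS and means of 7765 ± 108 with frHMGB1, 8928 ± 738 with dsHMGB1, 7698 ± 415 with LPS and 7231 ± 34.98 with LPS/IFNγ. The low PBS value is that of replicate 3. Without it, the fold change of LPS/IFNγ over PBS was -0.19 ± 0.07 (adjusted p = 0.00242) where it was 0.01 ± 0.15 with it (adjusted p = 0.884), and dsHMGB1 exceeded LPS (0.22 ± 0.06, adjusted p = 0.00264), LPS/IFNγ (0.31 ± 0.06, adjusted p = 8.12e-05) and frHMGB1 (0.20 ± 0.06, adjusted p = 0.0152).

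Sdha had the smallest range of the 9 genes. The normalized counts were 10144, 10077 and 10723 in PBS, 10330, 10087 and 10128 with frHMGB1, 10237, 9996 and 9866 with dsHMGB1, 10441, 10778 and 11581 with LPS and 9934, 9873 and 10067.0 with LPS/IFNγ. The highest library was 1.17-fold the lowest. The intervals of the log2 fold change over PBS were -0.14 to 0.06 in dsHMGB1, -0.01 to 0.18 in LPS and -0.15 to 0.05 in LPS/IFNγ. This level is relative to the other genes, and other scalings made it a call. Scaled by library totals only, Sdha was called lower than in PBS at -0.40, -0.61 and -0.73 after dsHMGB1, LPS and LPS/IFNγ (log2; adjusted p = 0.00158, 2.91e-05 and 4.96e-06), and Ogdh at -0.63 after LPS and -0.71 after LPS/IFNγ (adjusted p = 0.01 and 0.00517). That scaling moves the median of all genes by -0.361, -0.683 and -0.684. With upper quartile scaling, which moves it by -0.237, -0.346 and -0.316, Sdha was called at -0.28, -0.26 and -0.37 (adjusted p = 0.00669, 0.00662 and 0.000685).

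Sdhb, the iron-sulfur subunit, and Fh1, fumarate hydratase, had their highest PBS value in replicate 3. Sdhb had 4526, 4280 and 13039 normalized counts in PBS, 5216, 5587 and 5028 with frHMGB1, 4442, 3668 and 3943 with dsHMGB1, 3998, 3898 and 3927 with LPS and 2866, 2908 and 2981 with LPS/IFNγ. With all PBS libraries its log2 fold change was -0.86 ± 0.33 after dsHMGB1 (adjusted p = 0.0314), -0.89 ± 0.33 after LPS (adjusted p = 0.0152) and -1.32 ± 0.33 after LPS/IFNγ (adjusted p = 0.00173). With PBS replicate 3 left out it was -0.14 ± 0.08 (adjusted p = 0.0595), -0.17 ± 0.08 (adjusted p = 0.0136) and -0.60 ± 0.08 (adjusted p = 2.12e-07). The call in dsHMGB1 was also lost without any 1 dsHMGB1 library (adjusted p = 0.0547 to 0.0978), and that in LPS without LPS replicate 2 (0.053) or 3 (0.0517). With PBS and the stimulated group fitted alone, none of the 3 was called (adjusted p = 0.191, 0.174 and 0.0595). The PBS values of replicates 1 and 2 lay within or just above the range of dsHMGB1 and LPS, and well above LPS/IFNγ.

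Fh1 had 1234, 1288 and 2803 normalized counts in PBS, 1507, 1547 and 1571 with frHMGB1, 1079, 891 and 1124 with dsHMGB1, 997, 1052 and 1044 with LPS and 835, 689 and 702 with LPS/IFNγ. The log2 fold change was -0.78 ± 0.26 after dsHMGB1 (adjusted p = 0.0128), -0.78 ± 0.26 after LPS (adjusted p = 0.00643) and -1.26 ± 0.26 after LPS/IFNγ (adjusted p = 0.000312). It was -0.29 ± 0.10, -0.30 ± 0.11 and -0.77 ± 0.11 without PBS replicate 3 (adjusted p = 0.00646, 0.00348 and 3.36e-07). The call in dsHMGB1 was lost without dsHMGB1 replicate 2 (adjusted p = 0.0574), and those in dsHMGB1 and LPS with the pairs of groups fitted alone (0.128 and 0.127). Fh1 was also lower in dsHMGB1 than in frHMGB1, at -0.58 ± 0.26 (adjusted p = 0.0387; 0.0573 to 0.128 without any 1 library of these groups), and at -0.59 ± 0.09 without PBS replicate 3 (adjusted p = 5.73e-06). Per kilobase of exon, Sdha over Sdhb was 1.22 and 1.28 in PBS replicates 1 and 2 and 0.446 in replicate 3, and 1.05 ± 0.06 with frHMGB1, 1.36 ± 0.11 with dsHMGB1, 1.51 ± 0.09 with LPS and 1.85 ± 0.03 with LPS/IFNγ.

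**Figure D3:**
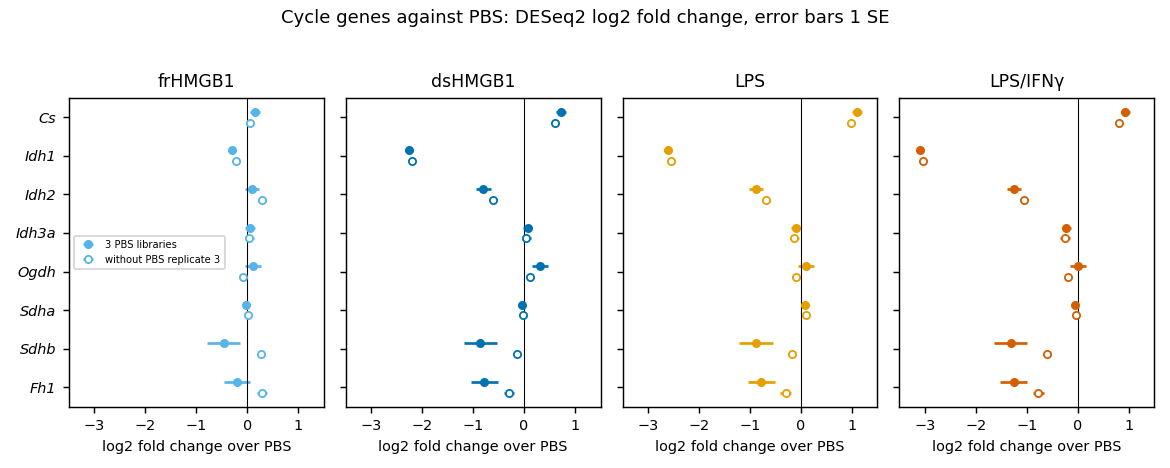
Log2 fold change over PBS (horizontal axis) of the 8 cycle genes in 4 stimulations, with error bars of 1 SE; filled points use 3 PBS libraries and open points leave out PBS replicate 3. Idh1 lies at -2.26, -2.60 and -3.10 in dsHMGB1, LPS and LPS/IFNγ and barely moves without the library, while Sdhb goes from -0.86 to -0.14 in dsHMGB1.

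Counted over the list, frHMGB1 differed from PBS in 1 of the 9 genes (1 higher, 0 lower), where 1.31% of the 16919 genes tested were called higher and 5.69% lower. dsHMGB1 had 2 higher and 4 lower (background 23.3% and 24.2%), LPS 2 higher and 4 lower (26.7% and 36.2%) and LPS/IFNγ 2 higher and 5 lower (29.0% and 31.2%). The 2 higher genes were Acod1 and Cs each time. Idh1, Idh2, Sdhb and Fh1 were lower in all 3, with Idh3a added in LPS/IFNγ. In these 3 groups the share of members called higher was near or below the background. The share called lower was above it in dsHMGB1 and LPS/IFNγ, and in LPS, at 4 of 9 genes, it was near it. A single call moves the share of 9 genes widely, so no excess over the background is read from these counts. Leaving out PBS replicate 3 gave 4 higher (Acod1, Idh2, Sdhb, Fh1) and 1 lower (Idh1) with frHMGB1, 2 and 3 with dsHMGB1, 2 and 4 with LPS and 2 and 6 with LPS/IFNγ. In that fit 8.41%, 29.8%, 32.9% and 33.3% of 17339 genes were called higher and 9.09%, 29.0%, 38.3% and 34.4% lower. The counts of lower members in dsHMGB1 and LPS were near these shares. With a log2 fold change of 2 in either direction as the limit, which the study used without a p, Acod1 and Idh1 passed in dsHMGB1, LPS and LPS/IFNγ and no member in frHMGB1. This class held 13.2%, 24.9%, 21.8% and 7.44% of all tested genes in the same order. Acod1 in frHMGB1 fell just short of it at 1.99. The median over the 8 cycle genes was -0.41, -0.44 and -0.74 in dsHMGB1, LPS and LPS/IFNγ, beside -0.10, -0.21 and -0.12 over all tested genes. Without PBS replicate 3 it was -0.08, -0.15 and -0.43, beside 0.02, -0.10 and 0.04 over the same genes.

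The stimulations were also compared with each other. dsHMGB1 against LPS gave 1 higher (Idh1) and 2 lower (Acod1, Cs), with 15.8% of all genes called higher and 10.6% lower. dsHMGB1 against LPS/IFNγ gave 3 higher (Idh1, Idh2, Idh3a) and 0 lower, with 16.5% and 16.7% of all genes. LPS/IFNγ against LPS gave 0 higher and 1 lower (Idh1), with 16.3% and 9.36%. dsHMGB1 against frHMGB1 gave 2 higher (Acod1, Cs) and 3 lower (Idh1, Idh2, Fh1), with 27.7% and 23.1%. PBS replicate 3 is part of these fits too. Without it, the counts were 2 higher and 2 lower for dsHMGB1 against LPS, 6 and 1 against LPS/IFNγ, 3 and 4 against frHMGB1, and 0 and 7 for LPS/IFNγ against LPS. The 7 genes below LPS in LPS/IFNγ were Acod1, Cs, Idh1, Idh2, Sdha, Sdhb and Fh1, with log2 fold changes from -0.50 for Idh1 to -0.14 for Sdha. In that fit the share of all genes called was 25.6% higher and 23.3% lower for dsHMGB1 against LPS, 27.9% and 25.4% against LPS/IFNγ, 35.8% and 32.9% against frHMGB1, and 25.1% and 24.3% for LPS/IFNγ against LPS.

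The branch was set against the cycle within each library by the ratio of Acod1 to the summed 8 cycle genes, all per kilobase of exon. In PBS the ratio was 0.00255, 0.00438 and 0.00177, and in frHMGB1 0.0154, 0.0137 and 0.00877. It was 9.86, 10.6 and 10.3 after dsHMGB1, 17.4, 18.1 and 17.2 after LPS and 14.9, 14.97 and 15.2 after LPS/IFNγ. The groups did not overlap. In PBS the 8 cycle genes together thus held 396 times the level of Acod1 (mean of 3 libraries), and in dsHMGB1 0.0977 times, in LPS 0.0570 times and in LPS/IFNγ 0.0665 times. Against single enzymes in LPS, Acod1 per kilobase was 67.2 ± 2.56 times Cs, 156 ± 3.92 times Idh1 and 72.5 ± 2.40 times Sdha. Against Idh1 the ratio in LPS/IFNγ, at 160 ± 5.69, overlapped that in LPS. In dsHMGB1 it was 70.3 ± 1.37. The 8 cycle genes took 0.123% to 0.131% of all reads in PBS and 0.121% to 0.123% in frHMGB1. Their share was 0.0742% to 0.0754% in dsHMGB1, 0.0608% to 0.0644% in LPS and 0.0542% to 0.0551% in LPS/IFNγ. The fall of this share includes that of Idh1, whose enzyme is not part of the mitochondrial cycle. Shares of reads follow library totals. With that scaling the median log2 fold change of all tested genes was -0.463, -0.892 and -0.808 in dsHMGB1, LPS and LPS/IFNγ against PBS. A lower share is therefore not by itself a fall relative to the median gene. Idh1 alone took 0.0427% to 0.0471% of all reads in PBS. It took 0.00734% to 0.00748% in dsHMGB1, 0.00455% to 0.00480% in LPS and 0.00318% to 0.00345% in LPS/IFNγ. These ratios are a description without a test.

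**Figure D4:**
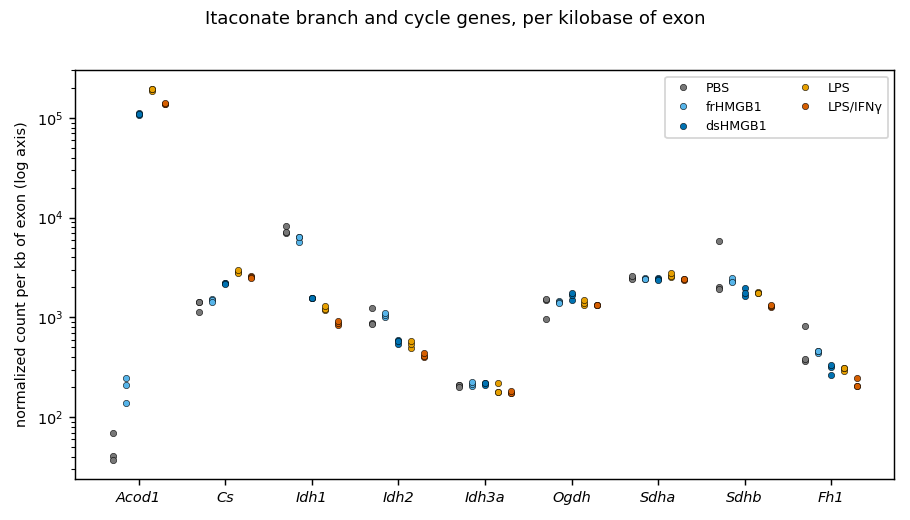
Normalized counts per kilobase of exon (log axis) of the 9 genes, with 1 point for each library and a colour for each condition. Acod1 passes every cycle gene in dsHMGB1, LPS and LPS/IFNγ, with means of 109791, 191965 and 139601, and lies below all of them in PBS at 49.2. Idh1, whose enzyme lies in the cytosol and peroxisomes, is the highest of the 9 genes in PBS at 7505.

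The order of the cycle genes differed between conditions. Per kilobase, Idh1 at 7505 ± 614 was the highest in PBS, followed by Sdhb, whose mean of 3252 rests on replicate 3, and Sdha at 2500 ± 86.0. In LPS Cs came first at 2857 ± 92.9, then Sdha at 2650 ± 142, whose libraries overlapped those of Cs, and Idh1 was at 1234 ± 50.3. Idh3a had the lowest mean of the 9 genes in dsHMGB1, LPS and LPS/IFNγ, at 177 to 217 per kilobase, and Acod1 had it in PBS and frHMGB1. These orders depend on the length used. Per kilobase of the longest transcript, Fh1 was below Idh3a in dsHMGB1 (391 and 428) and in LPS/IFNγ (281 and 349), and Cs did not overlap Sdha in LPS (5498 ± 179 and 3770 ± 202).

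The rest of the cycle was read from lists of its other genes. Of all tested genes, 1.31%, 23.3%, 26.7% and 29.0% were called higher in frHMGB1, dsHMGB1, LPS and LPS/IFNγ. In the same order, 5.69%, 24.2%, 36.2% and 31.2% were called lower. Without PBS replicate 3, 8.41%, 29.8%, 32.9% and 33.3% were called higher and 9.09%, 29.0%, 38.3% and 34.4% lower. The counts over this and the following lists were not tested against these shares. Of 12 other cycle enzymes, 2 rose and 4 fell in dsHMGB1, 3 and 4 in LPS and 2 and 5 in LPS/IFNγ, and 0 were called in frHMGB1. Dld, the dihydrolipoyl dehydrogenase shared by the 2-oxoglutarate and pyruvate dehydrogenase complexes, went from 3174 ± 124.5 normalized counts in PBS to 6181 ± 301, 7717 ± 229 and 6567 ± 93.6 (log2 0.96 ± 0.06, 1.28 ± 0.06 and 1.05 ± 0.06; adjusted p = 1.8e-07, 9.18e-09 and 5.01e-08). Dlst, the succinyltransferase of the same complex as Ogdh, rose by 0.40, 0.74 and 0.58. The other subunits of the NAD-dependent isocitrate dehydrogenase, Idh3b and Idh3g, fell by 0.49 and 0.77 on the log2 scale in LPS/IFNγ and the succinyl-CoA ligase subunits Suclg1 and Suclg2 by 0.79 and 0.70. Suclg1 had 2452, 2233 and 5114 in the PBS libraries, and without replicate 3 it was at -0.32 ± 0.08 in LPS/IFNγ (adjusted p = 0.000151). Sdhc, a membrane anchor subunit of succinate dehydrogenase, was called lower in LPS/IFNγ (-0.33 ± 0.17, adjusted p = 0.0451), a call lost without PBS replicate 3 (-0.08 ± 0.08, adjusted p = 0.112). Sdhd, Mdh2, Sucla2 and Ogdhl were called in no comparison with PBS. Without that library Mdh2, the mitochondrial malate dehydrogenase, was called higher in frHMGB1, dsHMGB1 and LPS (0.24, 0.29 and 0.49), Sucla2 higher in dsHMGB1, LPS and LPS/IFNγ (0.20, 0.28 and 0.27) and Ogdhl lower in LPS/IFNγ (-0.97). The counts over the 12 genes without PBS replicate 3 were 3 higher and 0 lower with frHMGB1, 4 and 3 with dsHMGB1, 5 and 3 with LPS and 4 and 5 with LPS/IFNγ.

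Of 14 genes of pyruvate entry, 2 rose and 3 fell in dsHMGB1, 2 and 5 in LPS and 2 and 6 in LPS/IFNγ, with 0 called in frHMGB1. Leaving out PBS replicate 3 gave 3 and 5, 4 and 6 and 2 and 9. Pdk2, a kinase that inhibits pyruvate dehydrogenase, went from 1038 ± 106 in PBS to 181 ± 22.4 after dsHMGB1, 66.2 ± 29.0 after LPS and 90.7 ± 24.1 after LPS/IFNγ (log2 -2.52 ± 0.23, -3.98 ± 0.25 and -3.51 ± 0.24; adjusted p = 1.9e-06, 2.74e-08 and 6.34e-08). Pdk3 moved the other way, from 489.9 ± 44.35 to 632 ± 28.4, 654 ± 37.75 and 2494 ± 250.5, and LPS/IFNγ exceeded LPS by 1.93 (adjusted p = 1.35e-07). Of the mitochondrial pyruvate carrier, Mpc1 rose by 0.53, 0.90 and 1.17. Mpc2 was called lower in LPS and LPS/IFNγ, at -0.94 ± 0.35 and -1.22 ± 0.35, with 1173, 1099 and 3550 in the PBS libraries. Without replicate 3 these were -0.18 ± 0.11 (adjusted p = 0.0606, not called) and -0.46 ± 0.11 (adjusted p = 0.000227). The subunits of the dehydrogenase itself, Pdha1, Pdhb, Dlat and Pdhx, were not called against PBS. Without PBS replicate 3, Pdhb was called higher in LPS (0.39), Pdhx higher in dsHMGB1 and LPS (0.41 and 0.47) and Dlat lower in LPS/IFNγ (-0.31).

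Of 6 genes of glutamine entry, 2 rose and 2 fell in dsHMGB1, 2 and 3 in LPS and 3 and 1 in LPS/IFNγ, against 2 and 3, 2 and 3 and 3 and 1 without PBS replicate 3. Gpt2, the mitochondrial alanine aminotransferase, rose by 1.00, 1.18 and 1.62. Me2, the mitochondrial malic enzyme, fell by 0.48, 0.74 and 0.72 on the log2 scale. The plasma membrane glutamine carrier Slc1a5 was lower in LPS (-0.31 ± 0.08) and higher in LPS/IFNγ (0.42 ± 0.08).

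Of 5 mitochondrial carriers, 1 rose in frHMGB1, 3 rose and 1 fell in dsHMGB1, 3 and 2 in LPS and 1 and 3 in LPS/IFNγ, with the same counts without PBS replicate 3. Slc25a12, an aspartate-glutamate carrier, rose from 1275 ± 144 to 4722 ± 119, 5936 ± 294 and 5787 ± 209 (log2 1.89 ± 0.09, 2.21 ± 0.09 and 2.18 ± 0.09), while its paralog Slc25a13 fell by 1.05, 0.79 and 0.80 on the log2 scale. Slc25a10, the dicarboxylate carrier, was at 2391 ± 222 in PBS, 2986 ± 63.7 with frHMGB1, 5474 ± 324 with dsHMGB1, 3304 ± 219 with LPS and 1846 ± 136 with LPS/IFNγ. dsHMGB1 exceeded LPS by 0.73 (adjusted p = 3.97e-05) and LPS/IFNγ by 1.57 (adjusted p = 3.49e-08), and the rise in frHMGB1 was called at 0.32 ± 0.09 (adjusted p = 0.04). The citrate carrier Slc25a1 rose in dsHMGB1 (0.31 ± 0.10) and LPS (0.49 ± 0.10) and was at -0.06 ± 0.10 in LPS/IFNγ.

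Of 4 assembly factors of succinate dehydrogenase, 3 fell in dsHMGB1, LPS and LPS/IFNγ, with Sdhaf4 at 520 ± 486 in PBS and 197 ± 33.7, 164 ± 27.1 and 115 ± 16.0, and Sdhaf2 rose in LPS/IFNγ (0.42 ± 0.14). PBS replicate 3 held 1081 counts of Sdhaf4 and 429 of Sdhaf1, and without it 0 of the 4 were called in dsHMGB1 and 3 fell in LPS and in LPS/IFNγ, with Sdhaf4 at -0.55 and -1.07 where it was -1.66 and -2.18, and Sdhaf2 rose in both. Of the 5 cytosolic counterparts and citrate users, Mdh1 and Got1 fell in all 3 conditions, at -0.99, -0.92 and -1.04 for Mdh1, with PBS replicate 3 at 13841 beside a mean of 8950. Without it they were -0.53, -0.47 and -0.58 and were called too. Aco1, the cytosolic aconitase, was called lower in LPS/IFNγ (-0.77 ± 0.23). Acly, the ATP citrate lyase, was called in no comparison with PBS, at 0.25, 0.28 and 0.19. The 5 genes had, with PBS replicate 3 left out, 1 higher and 2 lower in dsHMGB1 and 0 and 3 in LPS and LPS/IFNγ.

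Of 4 genes that handle itaconate, 1 rose and 2 fell in dsHMGB1, 0 and 2 in LPS and 1 and 1 in LPS/IFNγ. Clybl, an enzyme of itaconate breakdown, fell in dsHMGB1 (-0.84 ± 0.29, adjusted p = 0.0172) and LPS (-0.61 ± 0.29, adjusted p = 0.0411), with PBS replicate 3 at 553 beside a mean of 345. Without it these were -0.33 ± 0.16 (adjusted p = 0.0436) and -0.11 ± 0.16 (adjusted p = 0.361, not called). Auh fell by 0.77, 0.27 and 0.65 on the log2 scale, and the call in LPS was lost without that library (-0.12 ± 0.10, adjusted p = 0.134). Slc13a3, a dicarboxylate carrier of the plasma membrane that can carry itaconate, rose in dsHMGB1 from 18.05 ± 6.76 to 143 ± 18.3 normalized counts (2.97 ± 0.43, adjusted p = 0.000121) and was higher there than in LPS by 1.90 (adjusted p = 0.00478) and than in LPS/IFNγ by 1.59 (adjusted p = 0.0096). Abcg2, an exporter, was called in no comparison with PBS, and without PBS replicate 3 was called lower in dsHMGB1 (-0.31, adjusted p = 0.0122) and LPS (-0.20, adjusted p = 0.0497). This list had, without PBS replicate 3, 1 higher and 3 lower in dsHMGB1, 0 and 1 in LPS and 1 and 1 in LPS/IFNγ. D2hgdh, which oxidises D-2-hydroxyglutarate to 2-oxoglutarate, fell in all 3 conditions, from 417 ± 29.9 to 159 ± 15.6, 110 ± 32.0 and 73.2 ± 12.3, and was higher in dsHMGB1 than in LPS (adjusted p = 0.0491).

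**Figure D5:**
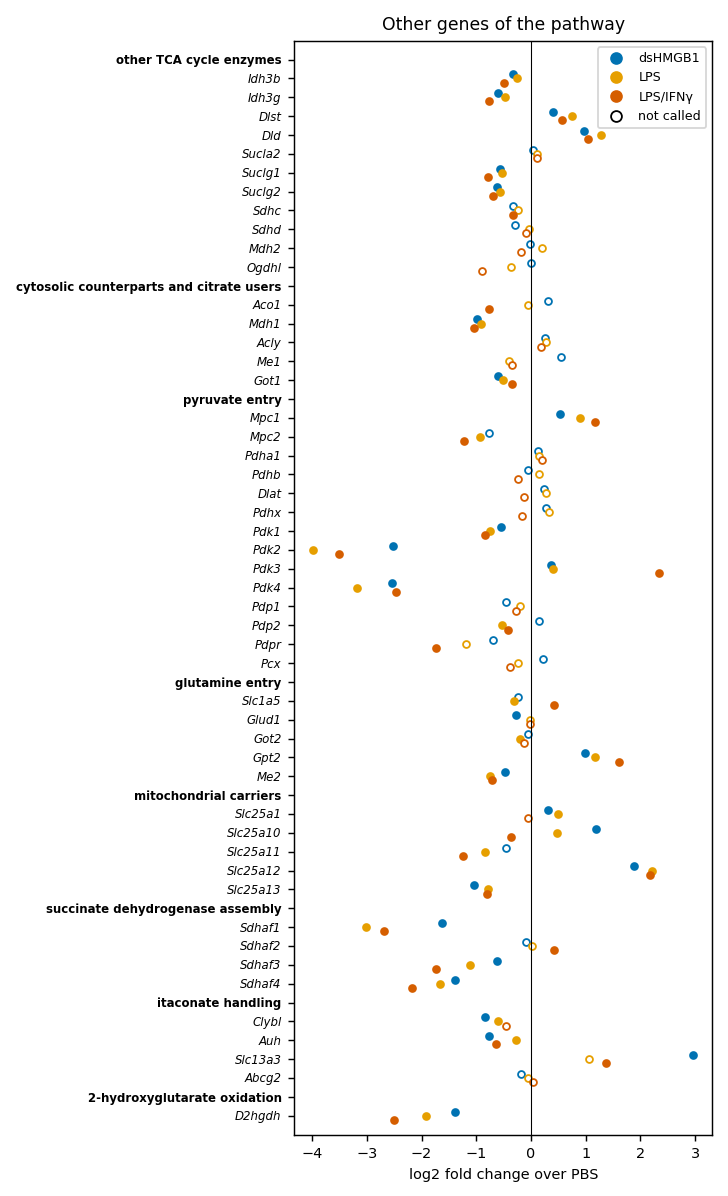
Log2 fold change over PBS (horizontal axis) of other genes of the pathway by list, in dsHMGB1, LPS and LPS/IFNγ; filled points were called and open points were not. Slc13a3 in dsHMGB1 (2.97) and Pdk3 in LPS/IFNγ (2.34) stand to the right of the other conditions, and Pdk2 lies farthest to the left in LPS at -3.98.

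The inflammatory genes Tnf, Il6, Il1b, Nos2, Cxcl9 and Irf1 were all called higher in dsHMGB1, LPS and LPS/IFNγ, and Tnf and Il1b in frHMGB1, at 1.46 ± 0.11 and 1.32 ± 0.21. Irf1 was called there too without PBS replicate 3 (0.22 ± 0.07, adjusted p = 0.0273). Over the 15 libraries, the 5 of 10102 protein-coding genes whose log2 normalized counts were most like those of Acod1 were Gpr85, Slc2a6, Cd69, Stat2 and Cxcl10, with Pearson's r from 0.9967 to 0.9975. Among the members r with Acod1 was 0.96 for Cs, -0.98 for Idh1, -0.92 for Idh2, -0.79 for Fh1, -0.69 for Sdhb, -0.43 for Idh3a, 0.28 for Ogdh and 0.07 for Sdha. The libraries fall into a low and a high group for Acod1, and the step between those groups enters each of these values. The genes most like Sdha were Tmem159, Ier2, Bbc3, Ctsl and Snrnp40, at r = 0.81 to 0.87.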

How the data were processed

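RNA of 15 BMDM samples, 3 for each of 5 conditions, was sequenced. The groups were taken from the sample labels. The authors prepared stranded mRNA libraries for paired-end sequencing, mapped reads with STAR (build GRCm38) and used DESeq2. CASAVA is also named in the submitters' processing notes. For the counting program and the annotation: not given in the sources used here. The deposited table holds raw counts per gene for 51763 Ensembl identifiers, of which 51661 were found in GENCODE M21, with 0 columns without a sample. The labels give 10 days of culture and the paper's methods a shorter one.

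Counts were tested with edgeR 4.0.16, by its quasi-likelihood F test (TMM, filterByExpr with about 10 counts in the libraries of a group and 15 in total, all 15 libraries in one fit, no covariates) in R 4.3.3. A gene was called at a Benjamini-Hochberg adjusted p under 0.05 over 16919 genes. Normalized counts, unshrunken log2 fold changes, SE and 95% intervals came from DESeq2 1.42.0. TMM or DESeq2 size factors assume that most genes do not change, so values are relative to the other genes of a library. Levels of different genes were compared per kilobase of GENCODE M21 exon union. Near copies were searched with blastn 2.17.0. The test was checked on simulated counts with the same spread for every gene, few changed genes and no library like PBS replicate 3. That check does not cover these features of the data. No replicate pair was a copy of one library (chi-square per degree of freedom 4.34 to 814). The depth was 40934540 to 80925478 counts per library, and reads copied by PCR are not independent molecules. Alternatives were other scalings, filters and tools, the groups compared fitted alone, a replicate block and leaving out each library.

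The rule for the members uses no measured value, but the members and lists were proposed and chosen with earlier results of these data known. All 9 members are named. From each pathway list up to 4 called genes per comparison with the largest change and a mean of at least 100 normalized counts in one group are named, or the list whole. The genes most like Acod1 and Sdha are the 5 with the highest r among protein-coding genes with a mean of at least 100. Some genes of the lists are not reported here by name or in the plot by list, though the counts over the lists include them.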

Additional observations from a re-analysis of the deposited data

How the results depend on the processing

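Of 72 single-gene results (9 genes in 8 comparisons) under 24 alternatives, 32 were called in the reported fit, 18 of these were called in the same direction under every alternative, and 0 reversed. The rise of Acod1 and the fall of Idh1 and Idh2 in dsHMGB1, LPS and LPS/IFNγ against PBS are among the 18.

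Scaling by library totals only moved the median of all genes by -0.361, -0.683 and -0.684 in dsHMGB1, LPS and LPS/IFNγ against PBS, and the share of calls that were higher from 49.0%, 42.5% and 48.2% to 28.1%, 21.9% and 25.3%; upper quartile scaling gave 35.7%, 32.1% and 37.2%. For dsHMGB1 against LPS, LPS/IFNγ and frHMGB1 the share with library totals was 84.0%, 74.3% and 34.5%, from 59.9%, 49.8% and 54.6%. With library totals the counts of members were 1 higher in dsHMGB1 and in LPS/IFNγ and 7 lower in LPS against PBS, 4 higher and 0 lower for dsHMGB1 against LPS, 7 higher against LPS/IFNγ, 1 higher and 6 lower against frHMGB1, and 2 lower for LPS/IFNγ against LPS. With the 2 groups alone they were 0 higher in frHMGB1, 2 lower in dsHMGB1, 2 lower in LPS and 3 lower in LPS/IFNγ against PBS, 2 higher for dsHMGB1 against LPS, 6 higher and 2 lower against LPS/IFNγ and 7 lower for LPS/IFNγ against LPS. In frHMGB1 against PBS, 1 gene was lower with upper quartile scaling, DESeq2's Wald test or a filter of 1 CPM in 3 libraries. DESeq2's Wald test called 3 lower for LPS/IFNγ against LPS, and no filter left 1 lower for dsHMGB1 against LPS. The cause of these differences was not tested.

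The labels do not say whether the replicate numbers pair the samples. Deviations of same-numbered samples from their group means correlated at r from -0.379 to 0.371, and both ends came from dsHMGB1 against PBS. With 3 libraries a group these values cannot settle whether the samples are paired. With the replicate number as a replicate block, 1 member was lower in dsHMGB1 than in LPS and 2 were lower in LPS/IFNγ than in LPS, and the calls of Sdhb in dsHMGB1 and of Idh3a in LPS/IFNγ against PBS were lost (adjusted p = 0.0532 and 0.0613).

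Leaving out each library in turn, the counts ran from 1 to 4 higher and 0 to 1 lower in frHMGB1 against PBS, 2 to 4 lower in dsHMGB1 against PBS, 1 to 2 higher and 0 to 2 lower for dsHMGB1 against LPS, 2 to 6 higher and 0 to 1 lower against LPS/IFNγ and 1 to 7 lower for LPS/IFNγ against LPS. The counts of 4, 6 and 7 came without PBS replicate 3, for frHMGB1 against PBS, dsHMGB1 against LPS/IFNγ and LPS/IFNγ against LPS. Without dsHMGB1 replicate 2, dsHMGB1 against PBS had 2 lower. Over the same leave-outs, 3 to 4 were lower in LPS and 4 to 6 in LPS/IFNγ against PBS. For dsHMGB1 against frHMGB1, 2 to 3 were higher and 2 to 4 lower. Both calls of dsHMGB1 below LPS (Acod1, Cs) were lost without any 1 dsHMGB1 library and without LPS replicate 2 or 3.

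Values that changed sign were those of uncalled genes. The sign was compared with edgeR's own log2 fold change in the reported fit, which is not printed, and not with that of DESeq2. Near 0 these can differ in sign. DESeq2 gave 0.0066 for Ogdh in LPS/IFNγ against PBS and 0.0104 for Idh3a in dsHMGB1 against frHMGB1. The positive values listed below for these 2 results therefore have the same sign as in DESeq2. With library totals only, the log2 fold change was 0.0275 for Sdha in frHMGB1, -0.2972 for Idh3a and -0.0794 for Ogdh in dsHMGB1, -0.6282 for Ogdh and -0.6085 for Sdha in LPS (all against PBS), 0.2107 for Sdha in dsHMGB1 against LPS, 0.113 for Cs against LPS/IFNγ and -0.2026 for Ogdh against frHMGB1. With upper quartile scaling it was -0.1684 for Idh3a in dsHMGB1 and -0.2446 for Ogdh and -0.2642 for Sdha in LPS. With 1 CPM in 3 libraries it was -0.0149 for Ogdh and -0.0228 for Sdha in LPS. With protein-coding genes only it was -0.0069 for Idh3a in frHMGB1, -0.0099 for Ogdh and -0.0211 for Sdha in LPS, and 0.0536 for Idh3a and 0.022 for Sdha in dsHMGB1 against frHMGB1. With no filter it was 0.0232 for Sdha in dsHMGB1, 0.0537 for Ogdh and 0.0071 for Sdha in LPS/IFNγ, and 0.1224 for Idh3a and 0.0908 for Sdha in dsHMGB1 against frHMGB1. RLE scaling gave 0.0069 for Ogdh in LPS/IFNγ and 0.0106 for Idh3a in dsHMGB1 against frHMGB1, and the 2 groups alone 0.0471 for Ogdh in LPS/IFNγ. Over the leave-outs, frHMGB1 against PBS ran from -0.0823 to 0.2467 for Ogdh, -0.0049 to 0.015 for Sdha, -0.6681 to 0.2563 for Sdhb and -0.3495 to 0.285 for Fh1, LPS against PBS from -0.1483 to 0.1542 and LPS/IFNγ from -0.2511 to 0.1016 for Ogdh, dsHMGB1 against LPS from -0.0264 to 0.1409 for Sdhb and -0.0097 to 0.1474 for Fh1, and dsHMGB1 against frHMGB1 from -0.0527 to 0.0245 for Idh3a.

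With the longest transcript in place of the exon union, Acod1 over the 8 cycle genes was 0.008759 for frHMGB1, 6.598 for dsHMGB1, 11.06 for LPS and 9.467 for LPS/IFNγ, in the same order of groups. Depth limits Acod1 in PBS most, at 83 to 291 reads.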
